A study of Mus musculus with 2 samples.

Results

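Conjugation enzymes join a bulky, polar group to drugs, toxins, steroids and products of oxidation, so that transporters can carry the product out of the cell. Glutathione S-transferases (Gst genes) add the tripeptide glutathione, UDP-glucuronosyltransferases (Ugt genes) add glucuronic acid from the donor UDP-glucuronic acid, and cytosolic sulfotransferases (Sult genes) add sulfate from the donor PAPS. In the kidney the proximal tubule, which takes up organic ions from blood, is a main site of these reactions and of the breakdown of glutathione conjugates to mercapturates. The enzymes were taken as every non-control probe whose gene name in the scanner files began with Ugt1, Ugt2, Ugt3 or Sult, or with Gst and a class letter (a, k, m, o, p, t or z) and a digit. This gave 31 of 19757 gene names, each with 1 probe, on 40 of the 21318 non-control spots, which carry 20868 distinct probes. They were 18 Gst, 11 Sult and 2 Ugt probes, and no gene name began with Ugt3.

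Kidney RNA of mice labelled Glis2 KO was set against kidney RNA of mice labelled Glis2 WT on 2 Agilent arrays that read both RNAs together in different dyes. The Glis2 protein is a zinc finger regulator of transcription found in kidney tubules. The mutant RNA carried Cy3 on array 1 and Cy5 on array 2, so the arrays form a dye swap, and every ratio below is mutant over wild type. The series text states that RNA of 3 kidneys was pooled, that mice of postnatal days 25 and 60 were used, and that RNA of 2 independent experiments was used with duplicate arrays. The sources used here give neither the age behind each array, nor the sex, strain or altered part of the gene, nor whether the 2 arrays are separate experiments or repeats of the same RNA pools. The p-values therefore rest on spread between 2 arrays, which may be technical. Most of the variance used for each probe is pooled over all probes (6.4 prior against 1 residual degrees of freedom). The moderated SE and p-value are thus not measures of that probe's own spread alone. The Glis2 probe read 363 and 206 in mutant kidneys on arrays 1 and 2, against 291 and 184 in wild type kidneys, with a mean log2 ratio of 0.24 ± 0.11 (moderated SE, n = 2 arrays, limma adjusted p = 0.347), so it was not lower in the RNA labelled mutant. Where the probe lies relative to the mutation is not given, and the probe does not check the labels.

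Between 94.6% and 97.4% of non-control spots were well above background in the 4 channels, the arrays' number limits the precision, and log2 ratios of the 19575 probes tested correlated between the arrays with a Pearson r of 0.577 across probes, which are not independent replicates. In the same comparison, 6 of 8 macrophage, 5 of 6 fibroblast and 7 of 8 adipocyte markers were called higher in mutant kidneys. limma called 0 of 5 hepatocyte markers and 0 of 6 adrenal cortex markers (1 and 2 at an unadjusted p under 0.05). Of 9 unsaturated proximal tubule markers 1 was called lower, and 7 of all 12 had an unadjusted p under 0.05. Over all probes 3.41% were called higher and 1.06% lower, and 15.9% had an unadjusted p under 0.05. Further, 2 of 6 collecting duct markers were called higher (Atp6v1b1 0.71 and Fxyd4 0.68), and 2 of 3 erythroid markers lower (Hba-a1 -0.77 and Alas2 -0.63). The marker levels, summed over the same probes in each genotype, were 12590 and 13640 in mutant kidneys, against 4998 and 5408 in wild type kidneys, for macrophages. For fibroblasts they were 11820 and 12350 in mutant kidneys, against 4864 and 5194 in wild type kidneys, and for adipocytes 36650 and 35170 in mutant kidneys, against 11000 and 10930 in wild type kidneys. The part of these cells in the results was not tested, and in whole kidney RNA fewer cells of a type and less RNA per cell cannot be told apart.

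Of the 31 enzymes a single gene was called, and the median lay near 0. All 31 passed the filter on background, 30 were tested, and Gsta1 was left out because its spot on array 2 carried outlier flags. limma called 1 of the 30 lower (Sult1d1) and 0 higher at an adjusted p under 0.05. Over all probes 1.06% were called lower and 3.41% higher, while the members' share of 3.33% lower rests on a single probe. By size, 0 members changed at least 1.5-fold on both arrays, against 2.14% of all probes that were higher and 0.516% that were lower by that much. At an unadjusted p under 0.05, 9 of 30 members passed, 6 of them lower and 3 higher, against 15.9% of all probes in either direction. That share is not matched for intensity or spread. Of the 30 members, 23 lay at or above the median intensity of all probes tested. The median SD between arrays was 0.0736 for members and 0.118 for all probes. The median of the 30 mean log2 ratios was -0.01 (0.02 on array 1 and -0.08 on array 2), beside 0.01 over all probes tested. In size, the median absolute log2 ratio was 0.143 for members and 0.117 for all probes. Log2 ratios were below 0 on both arrays for 13 members and above 0 on both for 11, and the remaining 6 had opposite signs. Over all probes 28.8% were below 0 on both arrays and 31.5% above.

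The levels below are normalized intensities in scanner units, after background correction and with an added offset of 50, and are compared only within a probe. For 10 members both mutant levels lay below both wild type levels, and for 3 members above them. The shares over all probes were 12% and 16%, and they too are not matched for intensity or spread. The 10 were Gsta3, Gsta4, Gstk1, Gstz1, Gsto1, Sult1c2, Sult1d1, Sult1e1, Ugt1a9 and Ugt2a1, and the 3 were Gstm2, Gstp1 and Sult1a1. The levels of the other 17 overlapped. This comparison runs across arrays and leaves out the pairing of genotypes within an array.

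**Figure D1:**
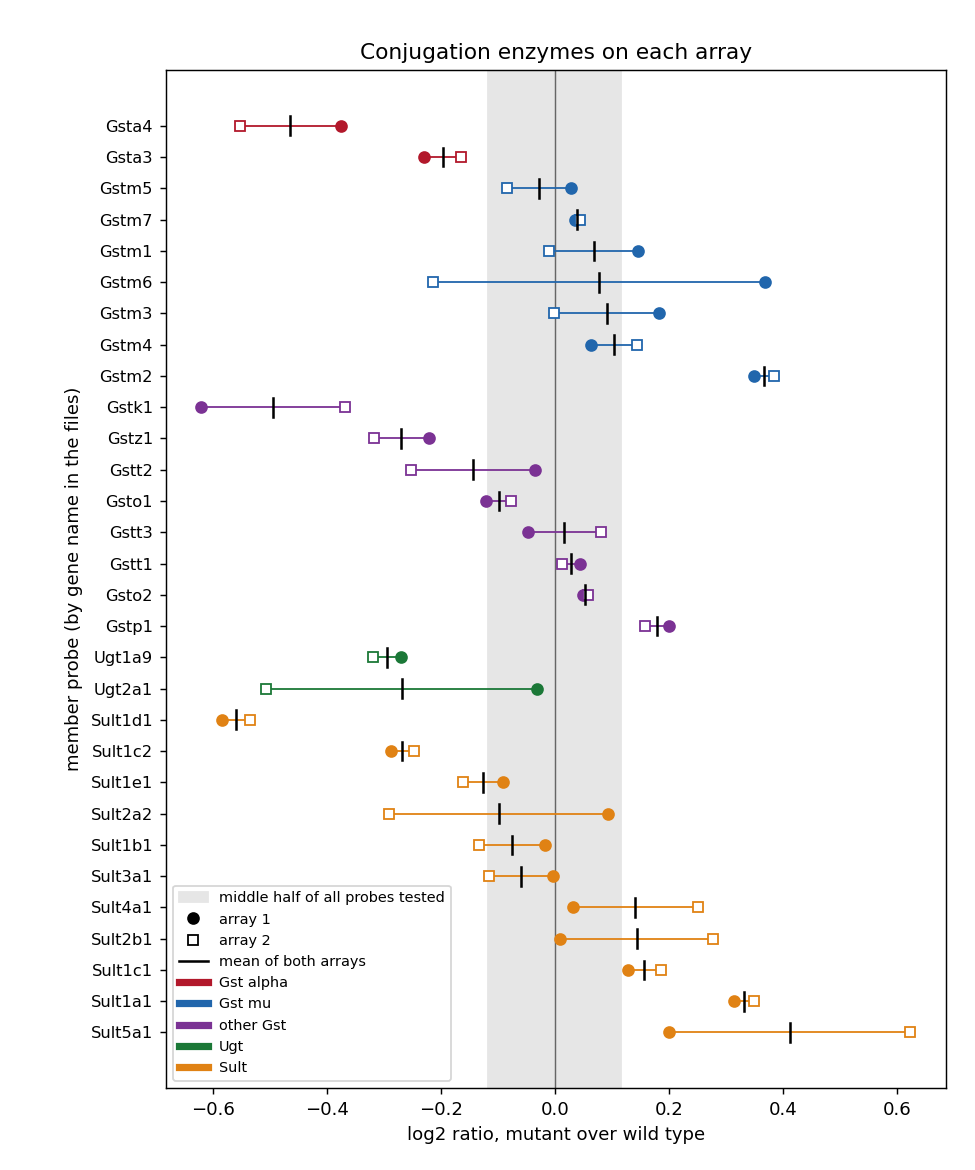
Log2 ratios (mutant over wild type, x axis) of the 30 tested member probes (y axis), on array 1 (filled circles) and array 2 (open squares), with the mean as a black bar and the middle 50% of all probes tested in grey, from -0.118 to 0.116. Sult1d1, Gstk1 and Gsta4 lie farthest below 0 and Sult5a1, Gstm2 and Sult1a1 farthest above, while 20 of 30 means lie within 0.2 of 0.

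Sult1d1, a mouse sulfotransferase of catecholamines and other phenols, was the only member called. Its level was 5549 on array 1 and 5932 on array 2 in mutant kidneys, against 8314 and 8592 in wild type kidneys. The groups did not overlap, and the wild type levels on the 2 arrays lay closer to each other than to either mutant level. The mean log2 ratio was -0.56 ± 0.11 (moderated SE, n = 2 arrays, limma adjusted p = 0.0299), or 1.47-fold lower in mutant kidneys, with -0.58 on array 1 and -0.53 on array 2. The log2 ratio lay between -0.593 and -0.535 under every alternative, but the call was lost with a smaller background offset (adjusted p = 0.119), with median centring (adjusted p = 0.152) and with log ratios taken from the scanner software (adjusted p = 0.245). On mouse chromosome 5, Sult1d1 lies between Sult1b1 and Sult1e1, with 0 protein-coding genes between neighbours in the RefSeq table for GRCm38.p6. Neither neighbour was called: Sult1b1, a sulfotransferase of thyroid hormones, had a mean log2 ratio of -0.08 ± 0.11 and Sult1e1, the estrogen sulfotransferase, -0.13 ± 0.11 (moderated SE, n = 2 arrays).

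The RefSeq promoter window of Sult1d1 (250 bases before to 50 after the start, GRCm38.p6, chr5:87568957-87569256, minus strand, 5′ to 3′) is shown because this is the member that was called. Capitals mark CACGC, a match on the opposite strand to GCGTG, the core of the xenobiotic response element.
Sult1d1: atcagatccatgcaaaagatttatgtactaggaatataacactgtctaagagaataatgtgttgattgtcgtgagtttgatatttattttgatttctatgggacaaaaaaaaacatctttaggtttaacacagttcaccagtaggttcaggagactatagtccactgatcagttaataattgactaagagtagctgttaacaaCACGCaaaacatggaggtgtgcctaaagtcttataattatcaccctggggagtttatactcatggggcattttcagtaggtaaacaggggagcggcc
The xenobiotic response element is bound by the Ahr receptor. On either strand GCGTG was in 32.4% of all 32851 windows and in 9 of the 36 windows of members. Those 9 belong to 7 of the 26 member genes with a window. TGACNNNGC is the core of the antioxidant response element, through which the factor Nfe2l2 acts. It was in 3 of the 36 member windows (Gsta3, Gstm5 and Gstm7) and in 12.4% of all windows. CAAAGTCCA, a site of the liver and kidney factor HNF4, was in 1 of the 36 member windows (Sult1b1) and in 0.475% of all windows. The Sult1d1 window held no match to the other motifs searched. The matches are descriptions of letters, and these motifs were chosen with the results known.

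The other sulfotransferases spread on both sides of 0. The 11 Sult probes had a median log2 ratio of -0.06 (0.01 on array 1 and -0.12 on array 2), with 5 below 0 and 5 above 0 on both arrays. Sult1c2, of the 1C class, read 1753 and 1979 in mutant kidneys, against 2141 and 2347 in wild type kidneys, with a mean log2 ratio of -0.27 ± 0.11 (moderated SE, n = 2 arrays, limma adjusted p = 0.283). Its neighbour on chromosome 17, Sult1c1, had 0.16 ± 0.11, with 0.13 on array 1 and 0.19 on array 2. Its levels overlapped between genotypes only when compared across arrays. Sult1a1, the main phenol sulfotransferase, read 566 and 544 in mutant kidneys, against 455 and 427 in wild type kidneys, so the groups did not overlap, at a mean log2 ratio of 0.33 ± 0.11 (limma adjusted p = 0.173).

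Sult5a1 had the highest mean of the sulfotransferases, 0.41 ± 0.13 (moderated SE, n = 2 arrays, limma adjusted p = 0.171), yet its arrays differed. It read 271 and 192 in mutant kidneys, against 236 and 125 in wild type kidneys, and its log2 ratio was 0.20 on array 1 and 0.62 on array 2. Sult2a2, a hydroxysteroid sulfotransferase, had a signal near background. It read 89.5 and 73.3 in mutant kidneys, against 83.8 and 89.6 in wild type kidneys, was not well above background in mutant RNA on array 2, and had log2 ratios of opposite sign. Sult2b1, which sulfonates cholesterol and pregnenolone, Sult4a1, a sulfotransferase of brain, and Sult3a1 had means of 0.14, 0.14 and -0.06.

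Among the glutathione transferases limma called 0 of 17 tested probes, with 1.06% of all probes called lower and 3.41% higher. At an unadjusted p under 0.05 there were 4 of the 17, against 15.9% of all probes. The median log2 ratio of the 17 was 0.03. The classes did not share a direction. The 2 alpha, 1 kappa and 1 zeta probes lay below 0 on both arrays, as did 1 of 2 omega and 1 of 3 theta probes. Of the 7 mu probes 0 lay below 0 on both arrays, 3 lay above and 4 had opposite signs. The 1 pi probe lay above 0 on both. Over all probes 28.8% were below 0 on both arrays and 31.5% above, and most classes hold too few probes to show a class pattern. No test of a difference between classes was made, since probes of a class share sequence and are not replicates.

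Of the alpha class, Gsta4 encodes the enzyme that conjugates the lipid peroxidation product 4-hydroxynonenal. Gsta4 read 388 and 356 in mutant kidneys, against 503 and 523 in wild type kidneys, a separation wider than the spread between arrays, at a mean log2 ratio of -0.46 ± 0.11 (moderated SE, n = 2 arrays, limma adjusted p = 0.0697). This probe was printed on 10 spots of each array. The spots gave log2 ratios from -0.46 to -0.29 with a median of -0.36 on array 1, and from -0.65 to -0.48 with a median of -0.54 on array 2, so the 20 values were below 0 and the spread within an array (SD 0.0563 and 0.0658) was smaller than the step between arrays. Copies of a probe repeat the hybridisation, not the kidneys. Gsta3 read 3662 and 4091 in mutant kidneys, against 4294 and 4583 in wild type kidneys, at -0.20 ± 0.11 (limma adjusted p = 0.436). Gsta1, left out for its flags, had log2 ratios of -0.15 on array 1 and -0.33 on array 2, the flagged array. With flagged spots kept its mean was -0.24 (limma adjusted p = 0.366).

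Gstk1 is the kappa transferase of mitochondria and peroxisomes. Its level was 3013 and 3552 in mutant kidneys, against 4632 and 4582 in wild type kidneys. The wild type levels nearly coincided while the mutant levels differed between arrays, and the mean log2 ratio was -0.49 ± 0.12 (moderated SE, n = 2 arrays, limma adjusted p = 0.0647). Gstz1, the maleylacetoacetate isomerase of tyrosine breakdown, read 2047 and 1893 in mutant kidneys, against 2387 and 2359 in wild type kidneys, at -0.27 ± 0.11 (limma adjusted p = 0.285).

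Whether Gsta4 and Gstk1 were called changed with the processing. Gsta4 was called lower without background correction (adjusted p = 0.0377) and with a trended, robust prior (adjusted p = 4.85e-05). Gstk1 was called lower under both (adjusted p = 0.0295 and 2.34e-07) and with both channels required above background (adjusted p = 0.0467), all by limma.

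The 7 mu class genes form an unbroken run on chromosome 3, with 0 other protein-coding genes between neighbours. Their median log2 ratio was 0.08 (0.15 on array 1 and 0.00 on array 2). Gstm2 stood at the top of them. It read 3344 and 3170 in mutant kidneys, against 2624 and 2427 in wild type kidneys, with no overlap, at a mean log2 ratio of 0.37 ± 0.11 (moderated SE, n = 2 arrays, limma adjusted p = 0.13). Gstm1 read 27620 and 25440 in mutant kidneys, against 24950 and 25630 in wild type kidneys, and its groups overlapped. Gstm3 (0.09), Gstm4 (0.10), Gstm5 (-0.03) and Gstm7 (0.04) had means within 0.2 of 0. Gstm6 turned sign between arrays, with 0.37 on array 1 and -0.21 on array 2. Mu genes are known to be close in sequence, and whether a probe binds transcripts of a neighbour was not tested.

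The pi, omega and theta transferases had means within 0.2 of 0. Gstp1, the pi class enzyme, read 3098 and 3091 in mutant kidneys, against 2698 and 2769 in wild type kidneys, at a mean log2 ratio of 0.18 ± 0.11 (moderated SE, n = 2 arrays, limma adjusted p = 0.476). The omega enzymes, which reduce dehydroascorbate and methylated arsenic, had means of -0.10 for Gsto1 and 0.05 for Gsto2. The theta enzymes Gstt1, Gstt2 and Gstt3 had 0.03, -0.14 and 0.02.

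**Figure D2:**
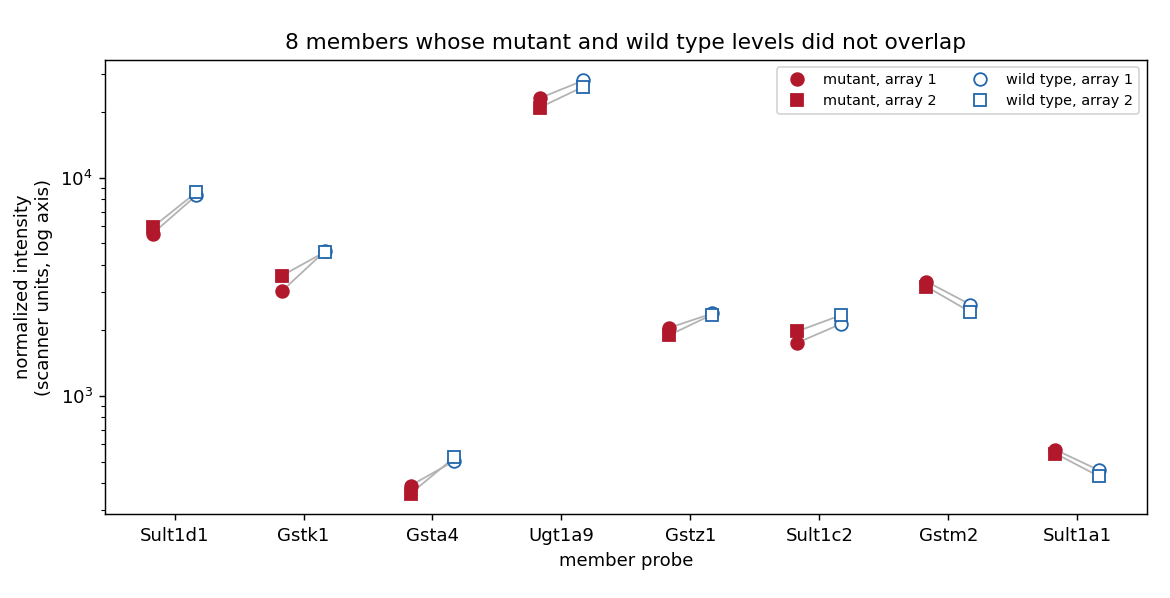
Normalized intensity (y axis, scanner units, log axis) of 8 of the 13 members whose levels did not overlap (x axis), in mutant RNA (filled red) and wild type RNA (open blue), with array 1 as circles and array 2 as squares, and lines joining the channels of an array. Sult1d1 lies at 5549 and 5932 in mutant kidneys, below 8314 and 8592 in wild type kidneys, and the lines of Gstm2 and Sult1a1 slope the other way.

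Both glucuronosyltransferase members lay below 0 without being called. The probe named Ugt1a9 read 23160 and 20980 in mutant kidneys, against 27940 and 26160 in wild type kidneys, at a mean log2 ratio of -0.29 ± 0.11 (moderated SE, n = 2 arrays, limma adjusted p = 0.233). The RefSeq table now gives the accession of this probe to Ugt1a6b. Enzymes of the Ugt1 locus share their last exons and differ in the first, so the isoform measured is uncertain. Ugt2a1, known from the olfactory epithelium, read 390 and 315 in mutant kidneys, against 398 and 448 in wild type kidneys. Its log2 ratio was -0.03 on array 1 and -0.51 on array 2, with a mean of -0.27 ± 0.14 (moderated SE, limma adjusted p = 0.405).

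The name rule misses enzymes of the same families that the array design lists under clone names. Through accession or older symbol, 14 further probes carry a current Gst, Sult or Ugt symbol that would meet the rule, and 13 of them were tested. They are no members, and they were added after the values were seen. limma called 4 of the 13 lower and 0 higher, with 1.06% and 3.41% over all probes, and with them the lower calls among all family probes come to 5. All 4 calls belong to Ugt2b37 and Ugt2b38, enzymes of the subfamily that conjugates steroids and many drugs.

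Ugt2b38 had a level of 8514 and 8993 in mutant kidneys, against 19050 and 20780 in wild type kidneys. Mutant levels lay far below wild type levels on both arrays, at a mean log2 ratio of -1.19 ± 0.11 (moderated SE, n = 2 arrays, limma adjusted p = 0.00166), or 2.27-fold lower. The 3 probes of Ugt2b37 gave the same direction. The first read 2685 and 2598 in mutant kidneys, against 4794 and 5129 in wild type kidneys, and the mean log2 ratios of the 3 were -0.91, -0.92 and -0.74 (limma adjusted p = 0.00452, 0.00373 and 0.0158). With the log ratios of the scanner software the 4 values lay between -1.19 and -0.76, but none of the 4 was called (adjusted p from 0.154 to 0.223). The third Ugt2b37 probe also lost its call with offset 16 (limma adjusted p = 0.089) and with median centring (adjusted p = 0.0678).

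The 2 genes lie on chromosome 5 with Ugt2a3 between them, which read 144 and 153 in mutant kidneys, against 123 and 178 in wild type kidneys, with overlap, at a log2 ratio of 0.00 ± 0.13 (moderated SE, n = 2 arrays). Their RefSeq promoter windows (GRCm38.p6, minus strand, 5′ to 3′) are shown for their likeness: set 14 bases apart, 271 of 286 overlapping bases, or 94.8%, are identical. None of the motifs searched is in these windows, so they hold no capitals. The windows are chr5:87254739-87255038 for Ugt2b37 and chr5:87424154-87424453 for Ugt2b38.
Ugt2b37: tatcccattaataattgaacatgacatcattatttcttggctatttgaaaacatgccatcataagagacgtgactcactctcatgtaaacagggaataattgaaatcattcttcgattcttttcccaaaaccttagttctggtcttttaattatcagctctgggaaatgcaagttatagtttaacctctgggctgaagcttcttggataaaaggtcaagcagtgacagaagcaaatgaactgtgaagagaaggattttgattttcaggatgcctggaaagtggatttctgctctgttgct
Ugt2b38: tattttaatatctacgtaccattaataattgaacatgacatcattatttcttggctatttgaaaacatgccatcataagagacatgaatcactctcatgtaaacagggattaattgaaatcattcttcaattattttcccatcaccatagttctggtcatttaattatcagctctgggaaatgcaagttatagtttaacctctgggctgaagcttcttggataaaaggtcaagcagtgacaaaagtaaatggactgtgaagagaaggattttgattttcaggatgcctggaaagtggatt
The 3 probes of Ugt2b37 measure the same gene, and whether probes of the 2 genes bind each other's transcripts was not tested.

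Of the other renamed probes, Ugt3a1 and Ugt3a2, of a subfamily that uses other UDP-sugars, had mean log2 ratios of -0.21 ± 0.11 and -0.28 ± 0.11 (moderated SE, n = 2 arrays, limma adjusted p = 0.409 and 0.278), with mutant levels below wild type levels on both arrays. Ugt2b34 differed in sign between arrays. It read 1002 and 2281 in mutant kidneys, against 1450 and 1374 in wild type kidneys, so its log2 ratio was -0.53 on array 1 and 0.73 on array 2. Ugt2b1, Ugt2b35, Gstp3, Sult2a8 and Sult6b1 had means between -0.24 and 0.18 and were not called.

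**Figure D3:**
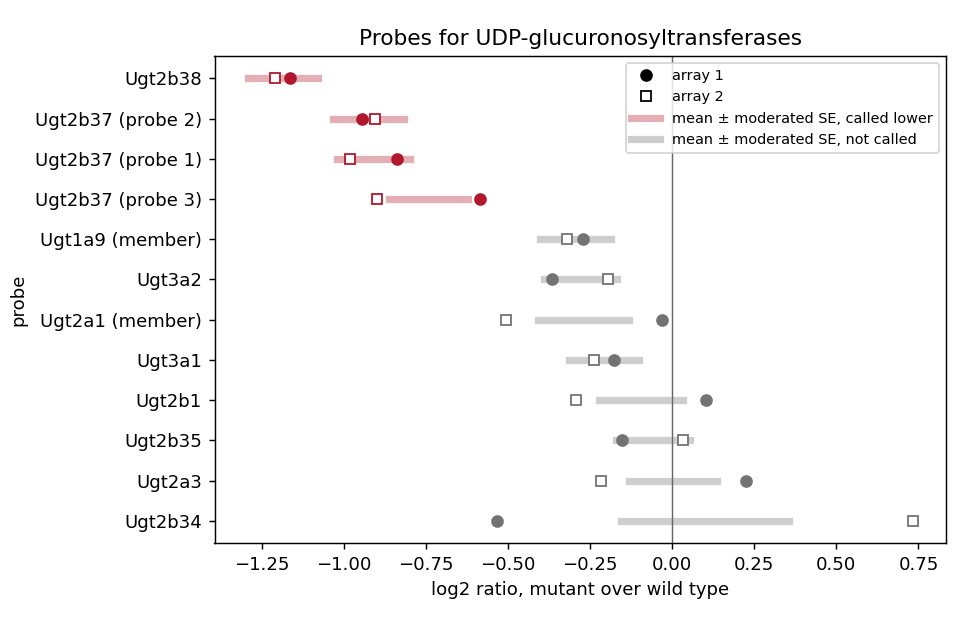
Log2 ratios (mutant over wild type, x axis) of 12 tested glucuronosyltransferase probes (y axis) on array 1 (filled circles) and array 2 (open squares), with bars for the mean ± moderated SE, red where limma called the probe lower. The probes of Ugt2b38 and Ugt2b37 lie between -1.21 and -0.59 on both arrays, the other 8 have no value below -0.53, and Ugt2b34 has its arrays on opposite sides of 0.

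Of 22 measured genes of glutathione synthesis, recycling and mercapturate steps, limma called 3 lower and 0 higher (1.06% and 3.41% over all probes). An unadjusted p under 0.05 was found for 11 of them (15.9% over all probes), and the median log2 ratio was -0.14. Gclc, the catalytic subunit of the rate-limiting enzyme of glutathione synthesis, had -0.83 ± 0.15 (moderated SE, n = 2 arrays, limma adjusted p = 0.0265), at -1.14 on array 1 and -0.53 on array 2. Its partner subunit Gclm had 0.06. Kyat3, a cysteine conjugate beta-lyase, had -0.73 (adjusted p = 0.0125), and Nat8, which acetylates cysteine conjugates to mercapturates, had -0.65 (adjusted p = 0.0166).

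Donor supply and export gave no calls. The counts at an unadjusted p given here stand beside a share of 15.9% over all probes. Among 18 measured genes of UDP-glucuronic acid and PAPS supply, sulfate handling and conjugate cleavage, limma called 0 (5 at an unadjusted p under 0.05), with a median of -0.03. Ugdh, which makes UDP-glucuronic acid, had a log2 ratio of -0.10, Papss1, which makes PAPS, had -0.05, and Papss2 had 0.10 on array 1 and 0.77 on array 2. Papss2 (0.44) and Cdo1 (0.42), the cysteine dioxygenase, had the means farthest from 0. Among 8 conjugate efflux pumps limma called 0 (2 at an unadjusted p under 0.05), and the values farthest from 0 were those of Abcc3 (-0.32) and Abcc2 (-0.27). Among 18 regulators limma called 0 (3 at an unadjusted p under 0.05), with a median of -0.02. Keap1, the repressor of Nfe2l2, had 0.44 ± 0.11 (moderated SE, n = 2 arrays, limma adjusted p = 0.0773).

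Of 16 Nfe2l2 targets outside the enzyme families, Cbr3, a carbonyl reductase, was called higher (0.83, limma adjusted p = 0.00869) and Gclc lower. The shares over all probes were 3.41% higher and 1.06% lower. The other 14, with Nqo1 (0.01) and Hmox1 (0.19) among them, were not called. Of the 16 targets, 7 had an unadjusted p under 0.05 (15.9% over all probes), and their median log2 ratio was 0.11. Of 8 measured membrane-bound and other transferases 3 had an unadjusted p under 0.05, and Mgst1, the microsomal glutathione transferase, was called higher. It read 2388 and 2594 in mutant kidneys, against 1593 and 1660 in wild type kidneys, at a log2 ratio of 0.61 ± 0.11 (moderated SE, n = 2 arrays, limma adjusted p = 0.0208), and the list median was 0.19.

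Of 12 proximal tubule markers, Fbp1, Miox and Pck1 were saturated in 2 or 3 of the 4 channels and are left out here, a choice made after seeing the data. The other 9 had levels that, summed over the same probes in each genotype, were 54660 and 59780 in mutant kidneys, against 75660 and 78030 in wild type kidneys. Their median log2 ratio was -0.40 (-0.32 on array 1 and -0.305 on array 2). limma called 1 lower, the phosphate transporter gene Slc34a1 (-0.61), and 0 higher (1.06% and 3.41% over all probes). Of all 12 markers, the saturated ones included, 7 had an unadjusted p under 0.05 (15.9% over all probes). Sult1d1, Gstk1 and Gsta4 lay below the median of the 9 markers and the other tested members above it. The means of the 9 markers ran from -0.61 to -0.16. Those of Sult1d1 (-0.56), Gstk1 (-0.49) and Gsta4 (-0.46) lay within that range. Of 11 measured androgen-responsive kidney genes, Kap was saturated in all 4 channels and gives no ratio. Of the other 10, limma called 4 lower and 0 higher (1.06% and 3.41% over all probes), with a list median of -0.36. The 4 were Cyp4b1 (-1.50), Slco1a1 (-0.95), Slc7a13 (-0.91) and Odc1 (-0.85). Not called were Cyp7b1 (-0.46), Cyp2e1 (-0.27), Gusb (-0.11), Timd2 (-0.09), Cyp4a12a (-0.06) and Slc22a12 (0.07). Of all 11, Kap included, 6 had an unadjusted p under 0.05. Xist (-0.15), the Y-linked Ddx3y (-0.09), Eif2s3y (-0.16) and Kdm5d (0.05), looked up after the values were seen, were not called. The part of tubule mass or hormone state in the values of Sult1d1, Ugt2b37 and Ugt2b38 was not tested.

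**Figure D4:**
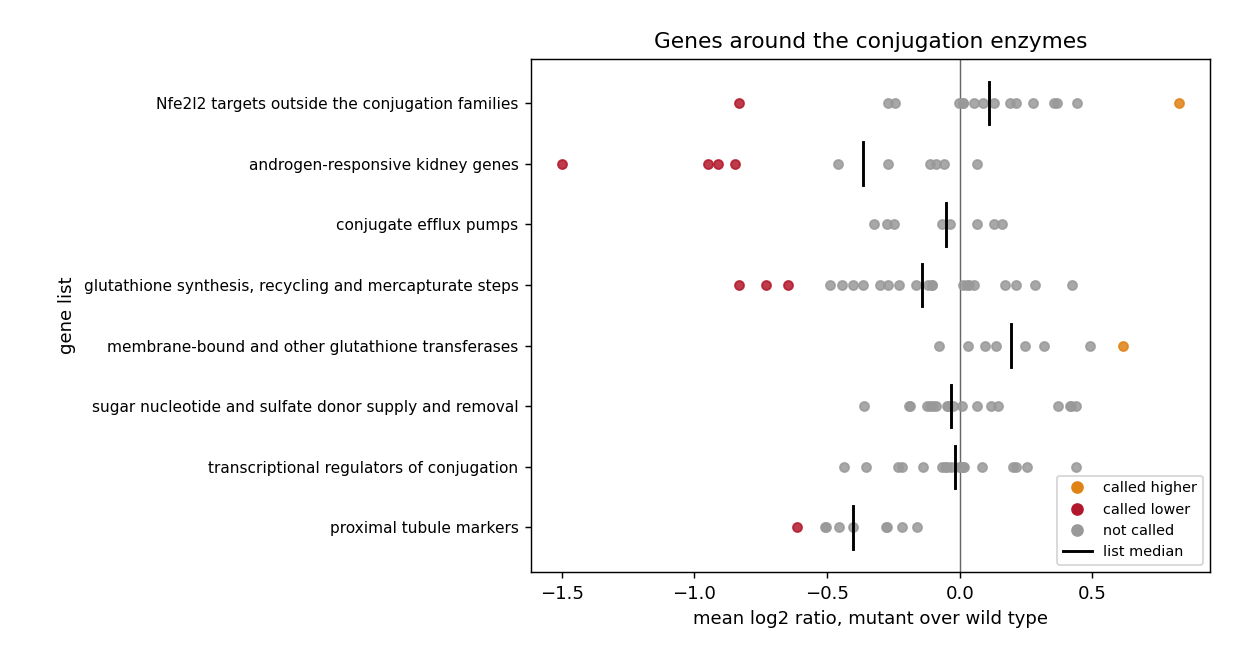
Mean log2 ratios (mutant over wild type, x axis) of the unsaturated genes of 7 lists around the conjugation enzymes and of the proximal tubule markers (y axis), as points coloured by limma's call, with the list median as a black bar. The medians run from -0.40 for the proximal tubule markers to 0.19 for the membrane-bound and other transferases, and the 4 androgen-responsive genes called lower lie between -1.50 and -0.85.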

How the data were processed

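Per the file headers, Agilent Feature Extraction 8.1.1.1 gave for every spot a mean intensity and a local background intensity in each dye, neither of them normalized. Labelling began with 500 ng of RNA, and 750 ng of cRNA in each dye went onto an array for 17 hours, per the labels. The scanner's log10 ratio, Cy5 over Cy3, was made with spatial detrending switched on and LOWESS dye settings, per the file headers. The authors' deposited value table holds these log10 ratios with the sign turned (Cy3 over Cy5), equal on all 22393 features, with medians of 0 on array 1 and 0 on array 2.

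The log2 ratios come from limma 3.58.1 in R 4.3.3: normexp with offset 50 on the mean signals, then loess within each array, where controls had no weight. Controls and the 88 spots flagged as outliers were dropped before copies of a probe were averaged. A probe was tested if well above background in mutant RNA on both arrays or in wild type RNA on both. Each probe's mean was tested against 0 with lmFit and eBayes (1 residual and 6.4 prior degrees of freedom), adjusted by Benjamini-Hochberg over 19575 probes. The SE is limma's moderated SE. The offset makes log2 ratios of dim probes too small. Levels were scaled between arrays with Aquantile. In lists the brightest probe stood for its gene. Every slide holds both genotypes in 1 dye orientation, so values per array are values within a slide, and slide effects cannot be separated from dye orientation. Probes were named by accession (13969), symbol (2385) or older symbol (2255) with RefSeq for GRCm38.p6, and 2259 kept the file's name. The build of the array design is not given in the sources used here.

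Named are the called members, the 3 probes of largest absolute mean in each family, and in each list the called genes or the 2 of largest absolute mean; the other members are given as values, and other list genes were picked for their known role after the values were seen. The members and lists were chosen with earlier results of these data known. Some genes of the lists are not reported here. The steps were tested on simulated data with equal noise at every spot. There 55% of probes changed 1.5-fold and 98.8% of those changed 2-fold were called in the right direction, so changes of about 1.5-fold can be missed. Alternatives covered background, offset, normalization, filter, prior, probe choice, each array alone and the scanner's ratios.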

Additional observations from a re-analysis of the deposited data

How the results depend on the processing

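With 2 arrays the calls depended on the processing. Against 1 lower and 0 higher member calls, 0 lower were left with offset 16, median centring, the scanner's log ratio, the series value table and a 1.5-fold minimum on both arrays, 2 with both channels above background, 3 without background correction, and 6 lower and 2 higher with a trended, robust prior. With the renamed probes, a choice made after seeing the data, there were 5. Over all probes, limma called 667 higher and 208 lower, against 253 and 40 (offset 16), 208 and 31 (median centring), 1580 and 945 (trended prior), 318 lower without background correction, and 0 and 0 with the scanner's log ratio and the series value table (2600 at an unadjusted p under 0.05, of which 5 were members). The Gst alpha median was -0.37 with those ratios and -0.24 with flagged spots kept, also chosen after seeing the data. The median of the other Gst classes was -0.0637 with median centring, and the Sult median 0.0411 with both channels above background, where Sult2a2 drops out. Gstt3 turned to -0.00473 with median centring. With 1 array left out, medians ran from -0.358 to -0.303 (alpha), -0.00103 to 0.147 (mu), -0.0413 to -0.032 (other Gst), -0.413 to -0.15 (Ugt) and -0.116 to 0.00946 (Sult). A single array, or the average of the 2, leaves nothing to test with. The causes of these shifts were not tested. Each array holds both genotypes, so every log2 ratio is already paired within an array, and no further block could be added. Dim probes such as Sult2a2 are limited by signal over background. With saturated probes kept, the proximal tubule median was -0.33 and the androgen-responsive median -0.27.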
